A study of Arabidopsis thaliana with 2 samples.

Results

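The upper end of Arabidopsis thaliana chromosome 2 was examined for intervals bound in vitro by LEAFY (LFY), up to coordinate 5000000 of the TAIR10 genome. It was defined as all intervals of chromosome 2 with a midpoint below that coordinate, in either of the 2 deposited lists, and is called the low end here. It held 679 of the 27396 intervals in all, made up of 529 of 22514 DAP intervals and 150 of 4882 ampDAP intervals. It was compared with chromosome 2 above coordinate 6000000, which held 2852 DAP and 608 ampDAP intervals. Its bounds are positions alone, but they were chosen with earlier results of these data known.

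DAP sequencing (DNA affinity purification) recovers the fragments of sheared genomic DNA that a tagged protein binds in a tube. The DAP library used DNA of 35S::LFY seedlings of the line CA26 #15, a single transgenic line in which the 35S promoter drives LFY, and this DNA kept its cytosine methylation. The ampDAP library used genomic DNA of seedlings for which no transgene is named, copied by PCR, which removes methylation. In both, DNA came from seedlings kept in long days for 2 weeks on 0.5 Murashige and Skoog medium, and the LFY protein carried the tag 5XMyC and was made by in vitro transcription and translation. There was 1 library per group, so the kind of DNA and the plant source cannot be told apart, and all comparisons describe these 2 libraries.

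LFY is a plant-specific transcription factor that turns a shoot meristem into a flower, and it also binds near floral organ identity genes. The upper end of chromosome 2 begins at a cluster of ribosomal RNA genes, runs through gene-rich sequence and passes into the pericentromere, where genes thin out, transposon-derived sequence accumulates and cytosines are densely methylated. Beside the centromere of this chromosome the reference genome carries a large insertion of mitochondrial DNA, so that many genes there resemble those of the organelle.

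All intervals were 400 bp wide and carried no height, score or p-value, and read depth is unknown. An absent interval therefore means that none was listed, not that LFY did not bind. Ranges in parentheses after a share or ratio are exact 95% confidence intervals. They cover counting error only and treat listed positions as independent, which neighbouring sites, and sites present in both lists, need not be.

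Both lists thinned from the chromosome end towards the stretch beside the centromere. In windows of 100 kb, the 1st Mb held 12, 30, 15, 27, 27, 9, 18, 19, 16 and 13 DAP intervals in order along the chromosome. The 2nd Mb held 17, 28, 11, 11, 21, 17, 5, 11, 10 and 15, and the 3rd held 11, 12, 10, 17, 10, 6, 7, 9, 10 and 12. These windows fell from counts like those of the rest of the chromosome to about 10 per window. The 4th Mb held 11, 4, 0, 0, 0, 9, 4, 6, 2 and 5 DAP intervals. The 5th Mb held 4, 4, 7, 8, 7, 2, 4, 7, 5 and 4. Windows past the stretch thus stayed below 10, whereas the 137 windows above 6 Mb held 7 to 40 DAP intervals with a median of 21.

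The ampDAP counts were smaller and fell less steeply. Windows of the low end held 0 to 7 ampDAP intervals, with a median of 2.5, and those above 6 Mb held 0 to 13, with a median of 4. The windows with most DAP intervals, at 0.1 to 0.2 Mb (30 DAP, 7 ampDAP) and 1.1 to 1.2 Mb (28 DAP, 6 ampDAP), were also rich in protein-coding genes, with 30 and 28. The window at 3.8 to 3.9 Mb was the only one of the low end with more ampDAP than DAP intervals, 3 against 2, and it held 1 protein-coding gene and 23 pseudogenes. No window above 6 Mb had more ampDAP than DAP intervals, and the whole series had 5 such windows.

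**Figure D1:**
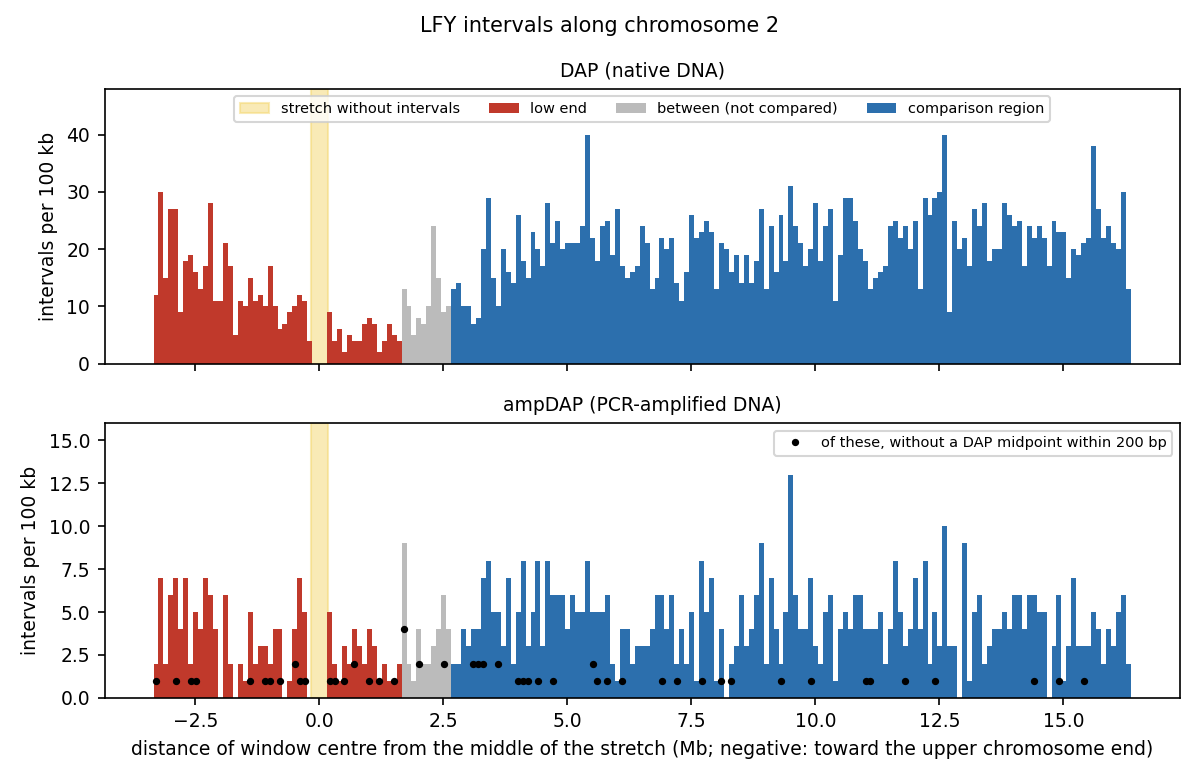
Number of DAP intervals (upper panel) and ampDAP intervals (lower panel) in each 100 kb window of chromosome 2, against the distance of the window from the middle of the stretch without intervals in Mb. Black points count the ampDAP intervals of a window that had no DAP midpoint within 200 bp. The 3 windows inside the shaded stretch hold 0 intervals of either list, and windows on both of its sides hold fewer DAP intervals than most of the comparison region.

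Over its whole length, the low end held 105.8 DAP intervals per Mb against 208.4 per Mb above 6 Mb, a ratio of 0.508 (0.462 to 0.557). The ampDAP density was 30 against 44.4 per Mb, a ratio of 0.675 (0.561 to 0.809). Both intervals lay below 1. By megabase, the DAP density was 186, 146, 104, 41 and 52 per Mb and the ampDAP density 46, 33, 30, 18 and 23 per Mb from the chromosome end inwards. The interval of the ratio to the comparison region included 1 in the 1st Mb for DAP (0.893, 0.766 to 1.04), and in the 1st (1.04, 0.7501 to 1.40) and 2nd (0.743, 0.507 to 1.06) for ampDAP. The first 5 Mb of chromosome 4, which also begins at ribosomal RNA genes, held 634 DAP and 184 ampDAP intervals.

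Gene number fell as well. The low end held 137.8 protein-coding genes per Mb against 259.3 above 6 Mb, and 125 pseudogenes per Mb against 20.1. Per protein-coding gene there were 0.768 DAP intervals in the low end and 0.804 above 6 Mb. The value of the low end includes 96 genes of a stretch without intervals. On the 2 sides of that stretch the values were above that of the comparison region. They were 0.869 towards the chromosome end and 1.05 between the stretch and 5 Mb. Genes were taken from a RefSeq table of assembly TAIR10.1, whose coordinates were taken to be those of TAIR10 without a check. The table gives no strand, so a promoter could not be told from a 3′ flank, and distances are to the nearer end of a gene. The 4th Mb, which includes the stretch without intervals described below, stood apart with 0.339 DAP intervals per protein-coding gene, and the 3rd Mb had 1.27.

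Within the sequence of protein-coding genes, the DAP density of the low end was 222.5 per Mb and that above 6 Mb was 263.3 per Mb, a ratio of 0.845 (0.745 to 0.956). With the genes of the stretch left out, the low end reached 244.6 per Mb, a ratio of 0.929 (0.819 to 1.05), whose interval included 1. The ampDAP density in protein-coding genes was 54.7 per Mb against 52.7 per Mb (ratio 1.04, 0.796 to 1.34). Within pseudogenes the DAP density was 66.5 against 136.7 per Mb, a ratio of 0.487 (0.352 to 0.676), and the ampDAP density 20.4 against 41.0 per Mb, a ratio of 0.498 (0.271 to 0.927). In the remaining sequence within 1 kb of a protein-coding gene, the DAP density was 89.8 against 136 per Mb, a ratio of 0.6601 (0.503 to 0.855). In sequence over 1 kb from any protein-coding gene and outside pseudogenes, it was 51.8 against 99.5 per Mb, a ratio of 0.5205 (0.397 to 0.678). The DAP ratio was thus below 1 in each of these 4 classes of sequence, and it came nearest to 1 in protein-coding genes. In the last 2 classes the ampDAP ratios were 0.670 (0.376 to 1.125) and 0.831 (0.520 to 1.31), and both ranges included 1. The stretch was left out for protein-coding genes alone, not for the other classes.

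The kinds of sequence in which intervals lay also differed, as did the make-up of the sequence itself. Of the 529 DAP intervals, 289 (54.6%, 50.3 to 58.9%) had their midpoint in a protein-coding gene, against 2184 of 2852 (76.6%, 74.98 to 78.1%) above 6 Mb. In pseudogenes lay 88 DAP intervals (16.6%, 13.6 to 20.1%), against 70 (2.45%, 1.92 to 3.09%). Protein-coding genes made up 25.97% of the sequence of the low end and 60.6% of that above 6 Mb. Pseudogenes made up 26.4% of the sequence of the low end and 3.74% of that above 6 Mb. For ampDAP, 71 of 150 intervals (47.3%, 39.1 to 55.6%) lay in protein-coding genes and 27 (18.0%, 12.2 to 25.1%) in pseudogenes, against 437 (71.9%, 68.1 to 75.4%) and 21 (3.45%, 2.15 to 5.23%) of 608 above 6 Mb. For both lists and in both regions, the share of intervals in protein-coding genes was above the share of sequence in them.

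The longest stretch of chromosome 2 without an interval of either list lay in the low end, at chr2:3172759-3515459 (342.7 kb). Its 3 whole windows, from 3.2 to 3.5 Mb, were the only windows of the 50 in the low end with no DAP interval. In the whole series 1.84% of 1193 windows had none. Above 6 Mb every window held at least 7 DAP intervals. The second longest stretch on the chromosome, chr2:4484751-4567062, measured 82.3 kb and also lay in the low end.

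By number, the stretch was not poor in annotated genes. It held 96 protein-coding genes, 55 pseudogenes, 23 tRNA genes and 26 other genes. Its protein-coding genes stood at 280.1 per Mb, against 259.3 above 6 Mb, and its 23 tRNA genes were most of the 30 of the low end. By length, protein-coding genes covered 117.1 kb of its 342.7 kb. That was a smaller share than the 60.6% above 6 Mb, though not than the 25.97% of the whole low end. Of the protein-coding genes within the stretch only ABCI4 and ABCI5, listed as ATP-binding cassette proteins, have a symbol in the table, and the other 94 are known by locus number alone. The table does not say which genes belong to the mitochondrial insertion. No protein-coding gene of the stretch had a DAP or ampDAP midpoint within 3 kb (0 of 96), against 415 of the 593 others of the low end for DAP (69.98%) and 173 for ampDAP (29.2%). A gene inside a stretch without intervals is far from them by definition, so this contrast is no finding.

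The 3 whole windows of the stretch held 27, 29 and 36 protein-coding genes. A minimum of 27 genes was therefore taken, after these values were seen, to pick gene-rich windows. This counts genes and not how much of a window they cover. The series had 520 such windows, and the 3 of this stretch were the only ones with no DAP interval. The 64 such windows above 6 Mb held 9 to 38 DAP intervals (median 22.5), and the 4 others in the low end held 17 to 30 (median 23). The 19 windows without DAP intervals on the other chromosomes held at most 18 protein-coding genes each. The longest stretches without intervals on chromosomes 1 and 3 (674.7 and 272.1 kb) held 6 and 0 protein-coding genes. Those on chromosomes 4 and 5 (140.4 and 353 kb) held 2 and 0. The stretches of chromosomes 1 and 5 were thus longer than the 342.7 kb of chromosome 2, as was the second longest of chromosome 1 (407.8 kb). Shorter stretches without intervals elsewhere were also rich in genes. The second longest of chromosome 5, chr5:14322671-14528239 (205.6 kb), held 47 protein-coding genes, or 228.6 per Mb. The third longest of chromosome 4 (93.7 kb) held 31, or 330.8 per Mb, and the sixth longest of chromosome 1 (95.2 kb) held 26, or 273 per Mb. A stretch that is rich in genes by number and without intervals was therefore not particular to chromosome 2.

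**Figure D2:**
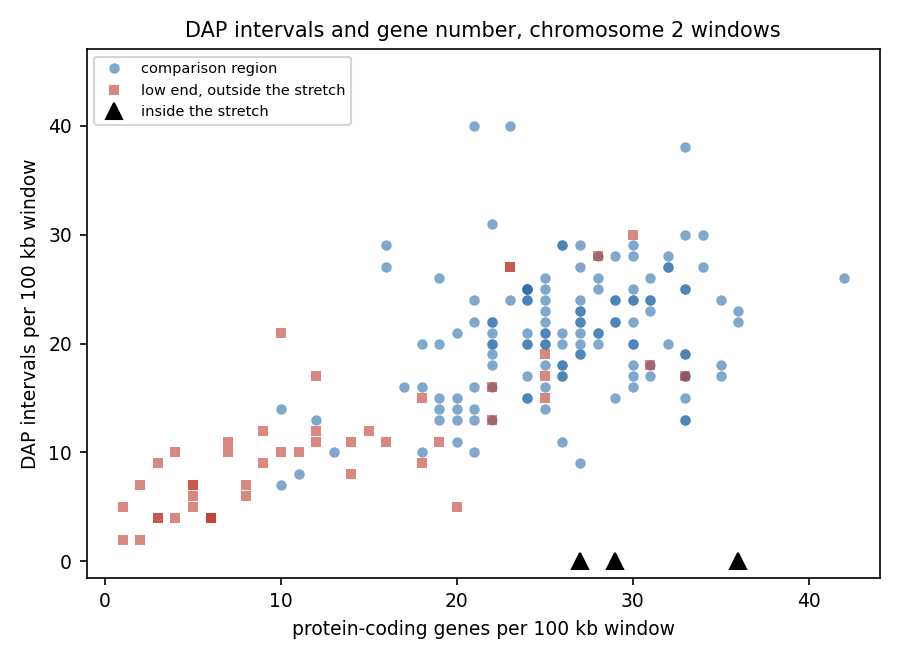
DAP intervals per 100 kb window of chromosome 2 (vertical axis) against the number of protein-coding genes in the window (horizontal axis), 1 point per window, for the low end, the comparison region and the stretch without intervals. The 3 windows inside the stretch, with 27, 29 and 36 genes, lie at 0, whereas the other windows with at least 27 genes hold 9 or more DAP intervals.

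The edges of the stretch fell within protein-coding genes. The last interval before it, a DAP interval at chr2:3172359-3172758, had its midpoint in HA6, a plasma membrane proton pump, and the nearest ampDAP midpoint to HA6 was 106.2 kb away. The first after it, a DAP interval at chr2:3515460-3515859, lay in ABCC13, an ABC transporter, and had an ampDAP interval 2 bp away. ABCC13 held 4 DAP and 2 ampDAP midpoints. The next named protein-coding gene, MCM5, a subunit of the replicative helicase, had 1 DAP midpoint 9 bp from its end and its nearest ampDAP midpoint at 4079 bp. Intervals of both lists therefore began again within the first gene past the stretch, while on the upper side only DAP intervals lay close to it.

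Windows without ampDAP intervals numbered 7 of 50 in the low end, against 3 of 137 above 6 Mb and 4.36% of 1193 in the series. Of these 7, the 3 windows of the stretch also lacked DAP intervals. The other 4, at 1.3 to 1.4, 1.6 to 1.7, 2.6 to 2.7 and 3.1 to 3.2 Mb, held 11, 5, 7 and 4 DAP intervals. The mean over the 50 windows was 3 ampDAP intervals, so a window at 0 lies only 3 intervals from the mean.

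Where both lists had an interval, they placed it alike. A partner was defined as a midpoint of the other list within 200 bp. The 130 partnered ampDAP intervals of the low end lay a median of 8 bp from the DAP midpoint (quartiles 4 and 15 bp), and the 576 above 6 Mb a median of 6 bp (quartiles 3 and 12 bp). Of the DAP intervals of the low end, 130 (24.6%, 20.96 to 28.5%) had an ampDAP partner, against 579 (20.3%, 18.8 to 21.8%) above 6 Mb and 20.4% in the series. The ratio of the odds was 1.28 (1.02 to 1.60). In the first 5 Mb of chromosome 4 the share was 23.7% (20.4 to 27.2%), and from 5 to 6 Mb of chromosome 2 it was 26.1% (18.25 to 35.3%). A share of this size was therefore not particular to the low end.

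Relative to DAP, ampDAP intervals were more frequent in the low end, at 0.284 per DAP interval (0.235 to 0.341) against 0.213 (0.195 to 0.233) above 6 Mb. The ratio of these ratios was 1.33 (1.08 to 1.63). Between the chromosome end and the stretch, with 114 ampDAP and 451 DAP intervals, it was 1.19 (0.9395 to 1.49), which included 1. Between the stretch and 5 Mb, with 36 ampDAP and 78 DAP intervals, it was 2.17 (1.40 to 3.29). The ampDAP to DAP ratios of these 2 sides, 0.253 and 0.462, differed by a factor of 1.83 (1.13 to 2.90). The contrast with the comparison region was therefore larger on the inner side of the stretch, where DAP intervals stood at 52.5 per Mb against 142.1 per Mb on the outer side. The first 5 Mb of chromosome 4 had 0.290 ampDAP intervals per DAP interval (0.245 to 0.3425). Chromosome 2 from 5 to 6 Mb had 0.333 (0.223 to 0.4875). A raised ratio was therefore not particular to the low end. In these ratios a site of both lists counts in each list, as for 130 of the 150 ampDAP intervals of the low end. Their ranges treat the lists as separate counts and are approximate for that reason.

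Of the 150 ampDAP intervals, 20 had no DAP midpoint within 200 bp (13.3%, 8.34 to 19.8%), against 32 of 608 above 6 Mb (5.26%, 3.63 to 7.35%) and 5.96% in the series. The ratio of the odds was 2.77 (1.45 to 5.17). Per megabase, these unpartnered intervals numbered 4 in the low end and 2.34 above 6 Mb, and that ratio, 1.71 (0.928 to 3.09), had an interval that included 1. Partnered ampDAP intervals fell to 26.0 per Mb from 42.1 per Mb (ratio 0.618, 0.507 to 0.749). The higher unpartnered share in the low end thus went with fewer partnered intervals. DAP midpoints within 200 bp covered 4.19% of the sequence of the low end and 8.22% of that above 6 Mb. What part the sparser DAP list had in the unpartnered share was not tested.

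Unpartnered intervals lay mostly in the inner part of the low end. By megabase there were 4 of 46, 1 of 33, 6 of 30, 4 of 18 and 5 of 23. Below 2.5 Mb the share was 7.53% (3.08 to 14.9%) and the ratio of the odds to the comparison region was 1.47 (0.529 to 3.52), which included 1. From 2.5 to 5 Mb the share was 22.8% (12.7 to 35.8%) and the ratio 5.32 (2.37 to 11.3). Between the inner and the outer side of the stretch the odds differed by a factor of 2.43 (0.775 to 7.17), so with 20 intervals a difference between the sides was not detectable. The 1 Mb between the regions compared, from 5 to 6 Mb, held 8 unpartnered among 37 ampDAP intervals, and the first 5 Mb of chromosome 4 held 35 among 184 (19.0%, 13.6 to 25.4%), so a raised share was not particular to chromosome 2.

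**Figure D3:**
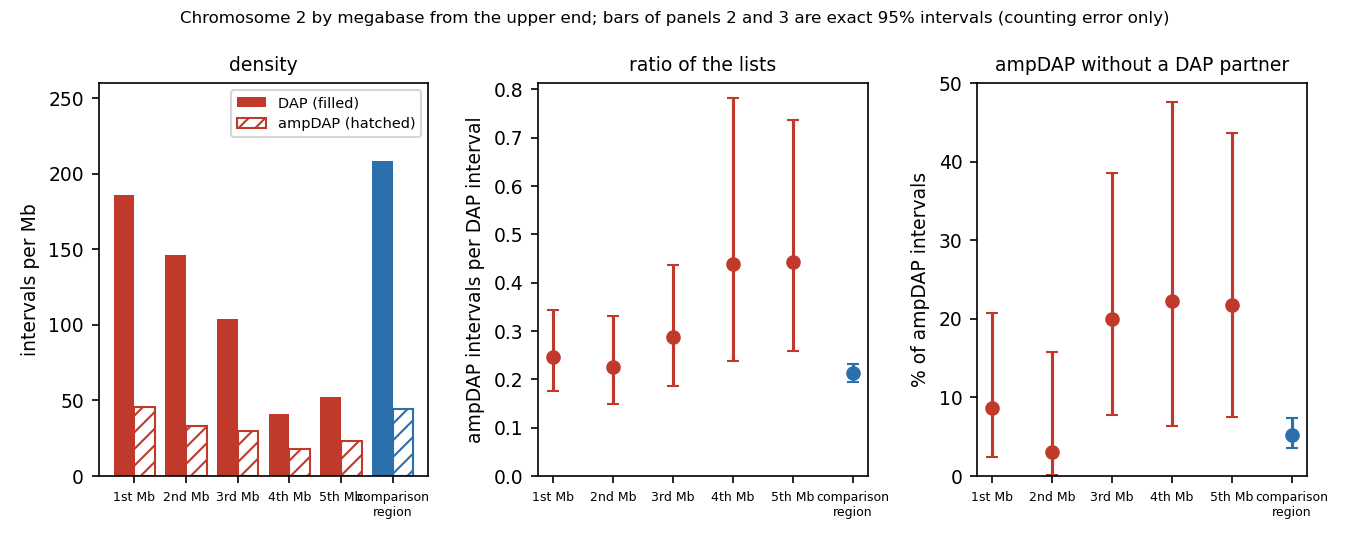
Density of DAP and ampDAP intervals per Mb (left), ampDAP intervals per DAP interval (middle) and percent of ampDAP intervals without a DAP midpoint within 200 bp (right) in each of the first 5 Mb of chromosome 2 and in the comparison region, with exact 95% intervals in the middle and right panels. DAP density falls from 186 to 41 per Mb over the first 4 segments, and the unpartnered share is 20 to 22.2% in the inner 3 against 5.26% in the comparison region.

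Most unpartnered intervals lay over 1 kb from any DAP midpoint. Their nearest DAP midpoint lay 600 to 58558 bp away (median 5424 bp), and 18 of 20 were over 1 kb away. Above 6 Mb the distance was 586 to 12015 bp (median 2593 bp), and 27 of 32 were over 1 kb away. Neighbouring DAP midpoints were themselves a median of 4101 bp apart in the low end and 3095 bp above 6 Mb. Nothing particular to unpartnered intervals is therefore read from these distances. The 58558 bp belong to chr2:9826-10225, the first interval listed on the chromosome, whose midpoint lay in the miscellaneous RNA gene AT2G00340. This midpoint was 4080 bp from the nearest of the ribosomal RNA genes at the chromosome end and 258 bp from the protein-coding gene AT2G01023. The next listed interval of either list began at 68384.

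Pseudogenes were the nearest annotated gene of 10 of the 20 unpartnered intervals, and protein-coding genes of 8. Of the 130 partnered ampDAP intervals of the low end, 41 had a pseudogene nearest and 87 a protein-coding gene. The low end held 625 pseudogenes and 689 protein-coding genes, which covered 26.45% and 25.97% of its sequence, so nothing is read from the count for the unpartnered intervals. Of the unpartnered intervals, 7 of 20 (35.0%, 15.4 to 59.2%) lay in or within 1 kb of a protein-coding gene, against 81 of the 130 partnered ampDAP intervals of the low end (62.3%, 53.4 to 70.7%) and 26 of the 32 unpartnered intervals above 6 Mb (81.2%, 63.6 to 92.8%). Sequence in or within 1 kb of a protein-coding gene made up 42.55% of the low end and 83.7% of the chromosome above 6 Mb, and both lay inside the ranges for the unpartnered intervals of their own region. The range for the partnered intervals of the low end lay above the 42.55%. The ranges for partnered and unpartnered intervals there overlapped. Overlap does not decide whether their shares differ, and that difference was not tested. Inside protein-coding genes of unknown name lay chr2:2396044-2396443, in AT2G06105, which was 24937 bp from a DAP midpoint, and chr2:2581652-2582051, in AT2G06500.

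The other genes within 1 kb were PKS1, AT2G01023, AT2G10025, AT2G10970 and AT2G12170. PKS1, a phytochrome-binding protein of phototropism, had an unpartnered ampDAP interval at chr2:857373-857772, 847 bp from the gene. A second ampDAP interval, 1761 bp from it at chr2:852117-852516, had a DAP partner 1 bp away and lay inside the neighbouring gene GSTF3. AT2G10970 had a partnered ampDAP interval within it and an unpartnered one, chr2:4334017-4334416, 578 bp outside.

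Known regulators of flower development, meristems and hormones in the low end were described from a list of 20 genes. A DAP midpoint lay in or within 3 kb of 17 of the 20 and an ampDAP midpoint within 3 kb of 10. Over all 689 protein-coding genes of the low end the shares were 60.2% and 25.1%, and over the 3549 above 6 Mb they were 82.1% and 31.5%. All 20 lay in the outer 3 Mb, and they were picked as known regulators rather than at random, so nothing particular to regulators is read from these shares.

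Among floral and flowering genes, SEP4, a MADS-box gene of floral organ identity, had a DAP interval within the gene at chr2:1130006-1130405 and an ampDAP interval 4 bp from it. A second DAP interval lay 613 bp outside SEP4. EFM, a MYB repressor of flowering, had DAP midpoints 1123 and 2305 bp away and no ampDAP midpoint within 3 kb. AGL30, a MADS-box gene active in pollen, had 3 DAP and 0 ampDAP midpoints within 3 kb, and LOV1, a NAC gene that delays flowering, had 1 and 0. ELF8, part of the Paf1 complex that supports expression of the floral repressor FLC, had DAP midpoints 2433 and 2953 bp away and its nearest ampDAP midpoint at 3022 bp. Of these 5 genes, SEP4 alone had an interval of both lists within 3 kb.

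Ovule regulators differed likewise. BPC1, a GAGA-binding factor that acts on ovule identity genes, held a DAP interval at chr2:427886-428285 with an ampDAP interval 17 bp away. WOX6, a homeobox gene of ovule development listed as PFS2, had DAP midpoints 649 and 1894 bp away and no ampDAP midpoint nearer than 15788 bp.

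Among hormone genes, the cytokinin receptor AHK4, listed as WOL, had 4 DAP midpoints within 3 kb, of which 3 lay in the gene, and 1 ampDAP midpoint at chr2:366937-367336. The type-B cytokinin response regulator ARR14 had 3 DAP midpoints and 1 partnered ampDAP midpoint, 2795 bp away. The auxin efflux carrier PIN4 had 3 DAP and 0 ampDAP midpoints. The jasmonate synthesis enzyme OPR3 held 3 DAP midpoints, with its nearest ampDAP midpoint at 8919 bp. RGA, a DELLA repressor of gibberellin response, had neither, with the nearest DAP midpoint 5125 bp and the nearest ampDAP midpoint 13225 bp away. IBR5, a phosphatase of auxin response, also had neither within 3 kb, but a pair of intervals of both lists stood just beyond, at 3443 and 3412 bp.

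BRL2, a receptor-like kinase of vascular development, held 4 DAP midpoints and 1 ampDAP midpoint, at chr2:440927-441326, with a DAP partner 5 bp away. Between BRL2 and its neighbour SGR5, a zinc-finger gene of shoot gravitropism, lay the unpartnered ampDAP interval chr2:437479-437878, 2946 bp from BRL2 and 2578 bp from SGR5. SGR5 was the only one of the 20 with an ampDAP and no DAP midpoint within 3 kb. SPR1, a microtubule-associated protein, had 4 DAP and 2 ampDAP midpoints within 3 kb, and both ampDAP midpoints had a DAP partner. CAND1, a regulator of cullin ubiquitin ligases, had 2 DAP midpoints and 1 ampDAP midpoint, 19 bp from a DAP midpoint within the gene. MYB88, a regulator of stomatal divisions, had 1 DAP and 0 ampDAP midpoints. CAS1, the cycloartenol synthase of sterol synthesis, had 5 DAP and 4 ampDAP midpoints within 3 kb, the most ampDAP midpoints of the 20, and all 4 had a DAP partner at most 10 bp away. It lay at 2.9 to 3.0 Mb, which with 7 ampDAP intervals had the most of any window from 2.5 to 5 Mb.

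**Figure D4:**
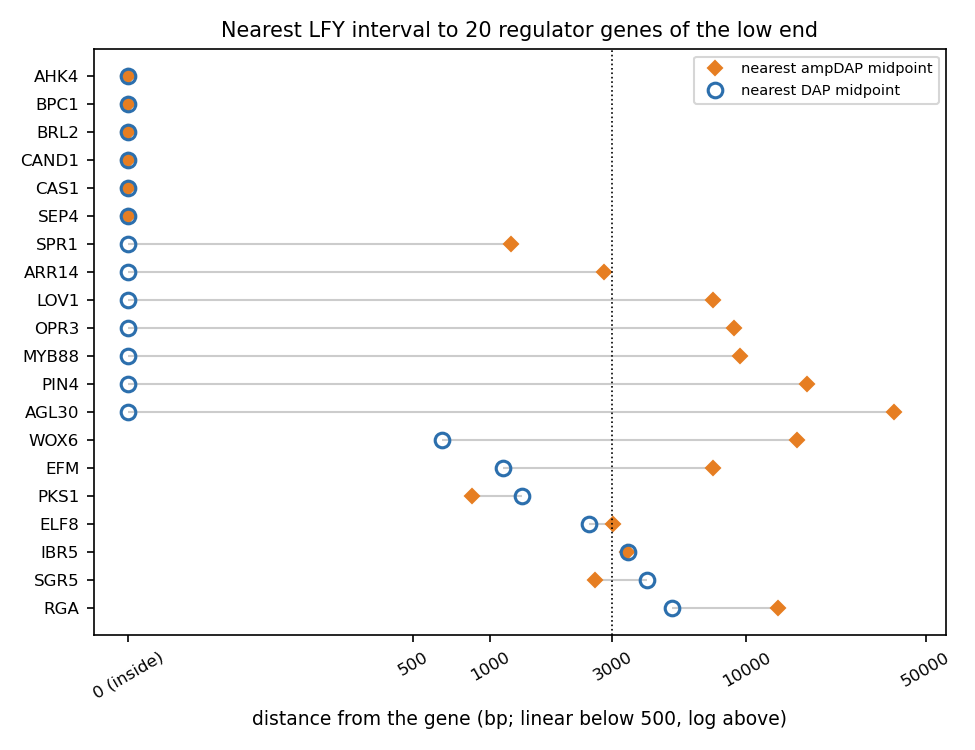
Distance from each of the 20 listed genes to the nearest DAP midpoint (open circles) and ampDAP midpoint (diamonds), in bp, on an axis that is linear below 500 bp and logarithmic above. The dotted line marks 3 kb. In 6 genes both lists have a midpoint inside the gene, and in 7 only the DAP list does.

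The genes with most DAP midpoints within 3 kb all lay in the outer 2 Mb. AT2G01130 had 7, at 85263 to 97129, and 0 ampDAP midpoints, the nearest being 18.8 kb away. AT2G01330 had 6 DAP midpoints and 4 ampDAP midpoints, all 4 with a DAP partner. GAD4, a glutamate decarboxylase, had 6 and 2, the phosphatidylinositol 4-kinase gene PI4K GAMMA 7 had 6 and 1, and AT2G01440 had 6 and 0. Genes with like numbers of DAP midpoints therefore had from 0 to 4 ampDAP midpoints.

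In the inner 2 Mb, intervals of both lists also marked scattered named genes, which were picked after their values were seen. The microRNA gene MIR396a, whose product represses growth-regulating factors, had a DAP interval at chr2:4143767-4144166, 1493 bp away, and an ampDAP interval 8 bp from that. SADHU1-1, a non-coding retrotransposon, held 1 midpoint of each list, 7 bp apart. CRCK3, a calmodulin-binding receptor-like kinase, held 1 of each, 15 bp apart, and had a second pair 718 and 759 bp outside, 41 bp apart. MGDC, a monogalactosyldiacylglycerol synthase, had its nearest DAP midpoint at 8137 bp and its nearest ampDAP midpoint at 39.0 kb. Of other named genes there, MAK10 and MIR5646 had midpoints of both lists within 3 kb. PFD1, MIR855 and AGL88 had a DAP midpoint but no ampDAP midpoint within 3 kb. The DAP midpoint lay in PFD1, 972 bp from MIR855 and 1534 bp from AGL88. LCR29, MIR8175 and MIR5020c had no midpoint of either list within 3 kb. The genes described are therefore not a sample of the named genes of the inner 2 Mb.

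At the coordinate that bounds the low end, the last members were a DAP interval with midpoint 4993548 and an ampDAP interval with midpoint 4993167. The first intervals beyond it had midpoints 5005209 and 5005857.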

How the data were processed

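The authors deposited 1 list of intervals per library (chromosome, start, end). No list has a score, ratio or signal column. Per the submitters' processing notes, Bowtie2, SAMtools and MACS2 and the genome TAIR10 were used; their settings, the control and the threshold are not given in the sources used here. Starts were converted to counting from 1. Gene names, classes and distances came from a RefSeq table of TAIR10.1, whose nuclear coordinates were taken to be those of TAIR10. This was not checked here, and every gene class and distance depends on it. The table gives no strand, so the planned share of promoters was replaced by distance to the nearer gene end. Genome sequence was not used here, so the planned motif and GC measures were not computed and no sequence is shown. Region lengths ended at 5 Mb and at the last listed interval, 19688448. Shares have Clopper-Pearson 95% intervals, and ratios of densities or odds have exact conditional 95% intervals (Python 3.11.15, scipy 1.17.1). With 1 library per group there was no test between groups. Counting was tested on simulated lists. Midpoints exactly on a window's upper bound belong to it.

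Named were genes within 1 kb of unpartnered ampDAP intervals, genes at the stretch, the 5 protein-coding genes with most DAP midpoints within 3 kb, and a fixed list of 20 regulators, all 20 of which were found in the table. Members and lists were chosen with earlier results of these data known.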

Additional observations from a re-analysis of the deposited data

How the results depend on the processing

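Among 43 values computed under alternatives, 23 lay inside the 95% interval given with the result (window counts, within 1.5 times), 20 lay outside it, and 0 changed direction. Shares and window counts have no direction to change, so the 0 concerns the ratios alone. The DAP density ratio (0.508) was 0.753 below 2.5 Mb and 0.263 from 2.5 to 5 Mb, and the ampDAP density ratio (0.675) was 0.838 and 0.513. From 2.5 to 5 Mb the ratio of ampDAP to DAP (1.33) was 1.95 and the unpartnered odds ratio (2.77) was 5.32. Below 2.5 Mb they were 1.11 (0.863 to 1.42) and 1.47 (0.529 to 3.52), both ranges including 1. The unpartnered share (13.3%) was 7.53% and 22.8% in these parts and 27.3% with midpoints within 20 bp, where the share of DAP intervals with a partner (24.6%) was 20.6%. Windows of 50 kb, 200 kb, and 100 kb shifted by 50 kb gave 12, 1 and 2 windows without DAP and 25, 1 and 4 without ampDAP intervals, which follows from window size and placement. The share of DAP intervals in or within 1 kb of a protein-coding gene (67.9%) was 63.3% within 500 bp, 79.2% within 3 kb and 90.9% within 1 kb of any gene, and that of ampDAP (58.7%) was 74.7% within 3 kb and 88.0% within 1 kb of any gene, alternatives added after the data were seen. The alternatives for promoters and motifs were not run, for want of strand and sequence. No paired analysis was possible because there was 1 library per group. Unknown depth and thresholds limit all comparisons between the lists.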
